A study of Mus musculus with 474 samples.

Results

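The genes described here are 10 genes of branched-chain amino acid breakdown (Bcat2, Bckdha, Bckdhb, Dbt, Bckdk, Ppm1k, Ivd, Mccc1, Hibadh and Aldh6a1), chosen by symbol from the 20612 genes in a table of skeletal muscle RNA-seq. All 10 were found and all passed the filter on low counts, which kept 18823 genes. The muscle, which the study's methods call gastrocnemius, came from adult Diversity Outbred mice, an outbred stock bred from several inbred strains, in which no animal shares its genome with another. All animals were on the same high-fat, high-sugar (HFHS) diet, labelled 45percent fat, so no group on another diet enters any comparison. Each animal gave 1 library, and the labels give its sex and a number that was read here, as an assumption, as the outbred generation. There were 48, 45, 49, 46 and 47 libraries labelled female in generations 17, 18, 19, 21 and 23, and 46, 48, 50, 47 and 48 labelled male. Of these numbers, the study's methods name 18, 19 and 21 as generations, and not 17 or 23.

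Leucine, isoleucine and valine are broken down largely outside the liver, with skeletal muscle as a main site of the opening step. There a mitochondrial aminotransferase, encoded by Bcat2, moves the amino group to a keto acid acceptor. The resulting branched-chain keto acids are then committed to oxidation by the branched-chain keto acid dehydrogenase complex, built from an E1 component (alpha subunit Bckdha, beta subunit Bckdhb), the E2 core Dbt and the E3 subunit Dld, which is shared with other dehydrogenases. The kinase Bckdk phosphorylates the E1 alpha subunit and switches the complex off, and the phosphatase Ppm1k reverses this. Past the complex the pathways part, with Ivd and Mccc1 on the leucine branch and Hibadh and Aldh6a1 on the valine branch.

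The members lie at 10 separate places in the genome (GRCm38 coordinates as deposited, whole gene spans). These are Bcat2 at chr7:45570153-45589711 on the plus strand, Bckdha at chr7:25629946-25658981 on the minus strand, Bckdhb at chr9:83925145-84124240 on the plus strand, Dbt at chr3:116513070-116549981 on the plus strand and Bckdk at chr7:127904082-127910221 on the plus strand. Ppm1k is at chr6:57506502-57535468, Mccc1 at chr3:35959312-36000678, Hibadh at chr6:52546228-52640389 and Aldh6a1 at chr12:84430717-84451004, all on the minus strand, and Ivd at chr2:118861954-118882909 on the plus strand. All are protein-coding. Bckdha shares 61.7% of its exon length with B3gnt8 on the opposite strand, and Aldh6a1 shares 18.6% with Bbof1 on the opposite strand. The median count of B3gnt8 was 1.48% of that of Bckdha, and the median count of Bbof1 was 1.505% of that of Aldh6a1. Use of strand in counting was not stated, so reads of such pairs cannot be told apart.

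Promoter windows are shown for Bckdhb, Ppm1k and Ivd, whose levels rose and fell together among animals, and for Bckdha and Bckdk, of which Bckdk had its highest correlation with Bckdha. Each runs from 250 bases before to 50 bases after a RefSeq transcript start (GRCm38.p6), 5′ to 3′ on the gene's strand. Capitals mark matches, on either strand, to AGGTCA (the nuclear receptor motif), CCAAT (the CCAAT box, ATTGG on the other strand) and GGGCGG (the GC box, CCGCCC on the other strand).
Bckdhb, chr9:83924887-83925186, plus strand: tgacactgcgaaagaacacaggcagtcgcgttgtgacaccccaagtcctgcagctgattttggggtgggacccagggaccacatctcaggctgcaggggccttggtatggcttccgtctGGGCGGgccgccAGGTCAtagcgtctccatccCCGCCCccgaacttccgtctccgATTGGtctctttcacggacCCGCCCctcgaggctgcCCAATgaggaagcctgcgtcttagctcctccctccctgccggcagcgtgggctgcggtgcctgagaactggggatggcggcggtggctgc
Ppm1k, chr6:57535438-57535737, minus strand: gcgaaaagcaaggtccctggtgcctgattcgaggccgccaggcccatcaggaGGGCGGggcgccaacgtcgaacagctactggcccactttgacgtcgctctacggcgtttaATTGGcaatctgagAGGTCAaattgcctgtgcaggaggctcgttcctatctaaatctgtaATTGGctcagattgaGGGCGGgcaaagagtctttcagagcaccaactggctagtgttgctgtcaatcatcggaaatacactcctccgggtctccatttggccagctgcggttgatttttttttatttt
Ivd, chr2:118861744-118862043, plus strand: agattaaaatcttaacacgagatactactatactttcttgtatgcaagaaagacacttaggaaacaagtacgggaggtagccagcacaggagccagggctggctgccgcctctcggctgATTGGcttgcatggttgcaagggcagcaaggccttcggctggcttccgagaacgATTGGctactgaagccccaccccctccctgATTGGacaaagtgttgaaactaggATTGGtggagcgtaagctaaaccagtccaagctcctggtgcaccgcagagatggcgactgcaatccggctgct
Bckdha, chr7:25658712-25659011, minus strand: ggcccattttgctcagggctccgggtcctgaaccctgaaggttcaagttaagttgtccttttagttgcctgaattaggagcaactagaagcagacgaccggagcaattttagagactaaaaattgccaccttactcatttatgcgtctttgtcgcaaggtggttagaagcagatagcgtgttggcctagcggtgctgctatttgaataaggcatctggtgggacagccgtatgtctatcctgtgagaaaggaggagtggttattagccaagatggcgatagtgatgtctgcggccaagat
Bckdk, chr7:127903823-127904122, plus strand: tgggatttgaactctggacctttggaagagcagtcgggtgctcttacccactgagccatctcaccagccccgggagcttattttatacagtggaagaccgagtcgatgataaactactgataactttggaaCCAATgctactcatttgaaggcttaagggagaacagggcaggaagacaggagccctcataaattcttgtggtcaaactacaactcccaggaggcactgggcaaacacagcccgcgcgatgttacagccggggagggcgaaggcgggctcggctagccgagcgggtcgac

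A RefSeq window was found for 9 of the 10 members, Dbt being without an entry. AGGTCA was present in 4 members (Bckdhb, Ppm1k, Hibadh and Aldh6a1) and in 16.3% of all 32851 windows. CCAAT was present in 7 of the 9 members and in 37.4% of all windows, and the members without it were Bcat2 and Bckdha. GGGCGG was present in 4 members (Bckdhb, Ppm1k, Mccc1 and Hibadh) and in 35.7% of all windows. The E-box CACGTG and the cyclic AMP response element TGACGTCA were in 0 of the 9 members and in 7.15% and 1.79% of all windows. Bckdhb, Bcat2 and Aldh6a1 have 2 windows each, counted together for the member. The shares of all windows are over single windows, so the units differ. Ivd has 4 CCAAT matches before its start, whereas the window of Bckdha and both windows of Bcat2 have 0 matches to any of the 5 motifs. Whether motif content goes with correlation among animals was not tested. A match is a run of letters and not a measured binding site, and the motifs were chosen with these windows in view.

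Library totals ran from 35902446 to 165723762 counts (mean 81518359 ± 16235106, SD over all libraries), so every member was counted well above the filter in every library. Muscle identity was clear: the summed level of Ckm, Acta1, Ttn, Mb and Des was 45290 to 93318 CPM (counts scaled to the library total) in females and 51186 to 88532 in males. The labelled sex was checked against Xist and Ddx3y, and 5 libraries went against their label (DO048, DO153, DO193, DO308 and DO347). They were kept, and results are given without them where these differ. Separate animals are the replicates, so differences were judged against the spread among animals, which were treated as independent. In bulk tissue a lower level cannot be told apart from fewer cells of a type that expresses the gene.

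The members differed widely in level, and their order depends on the transcript length used. The principal transcript holds 1825 of 10179 exon bases for Hibadh and 2455 of 10952 for Mccc1, but 1899 of 1899 for Bckdha. Per kilobase of the principal transcript, Hibadh (49.4 ± 5.24 CPM per kb, mean and SD over all libraries), Bckdha (48.8 ± 8.14) and Aldh6a1 (37.4 ± 6.34) were the highest. Bckdk followed at 31.5 ± 3.57 CPM per kb and Ivd at 20.9 ± 3.62. Bcat2 (15.9 ± 3.71), Bckdhb (13.5 ± 3.17), Mccc1 (11.2 ± 2.17) and Dbt (9.27 ± 2.39) came next, and Ppm1k was the lowest at 2.83 ± 0.72 CPM per kb. Hibadh and Bckdha differed by less than the larger of their SDs, as did Aldh6a1 and Bckdk and each pair of neighbours in the order Bcat2, Bckdhb, Mccc1 and Dbt.

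Within the dehydrogenase complex the messages were unequal. Bckdha stood above its E1 partner Bckdhb in every library, with a median ratio per length of 3.64 (1.36 to 7.99), and above the E2 gene Dbt in every library, with a median ratio of 5.34 (1.67 to 10.7). The shared E3 gene Dld was higher still, at 96.8 ± 12.3 CPM per kb. The kinase Bckdk exceeded the phosphatase Ppm1k in every library, with a median ratio of 11.5 (3.43 to 25.1). Of the transaminases, mitochondrial Bcat2 exceeded cytosolic Bcat1, at 0.30 ± 0.12 CPM per kb, by a median of 53.96 times (13.4 to 407.01). These ratios compare RNA per annotated length and depend on the transcript taken as principal.

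The sexes were compared because the study used sex as a covariate throughout. Females had more RNA of most breakdown genes, and the largest gaps were in the beta subunit of E1 and in the E2 core. Dbt was 1.39-fold and Bckdhb 1.35-fold higher in females, whereas Bckdha, whose protein pairs with that of Bckdhb, was 1.04-fold higher. The kinase Bckdk did not pass the test. In all, 9 of the 10 members were lower in males and 0 higher, by edgeR's quasi-likelihood F-test adjusted for generation, with Benjamini-Hochberg adjustment over all genes. Sex differences are common in this table: 55% of all genes tested passed, 30.6% lower and 24.4% higher in males. The median log2 difference (male minus female) was -0.17 over the members and -0.01 over all genes, and 17.2% of all genes lay at or below the members' median.

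**Figure D1:**
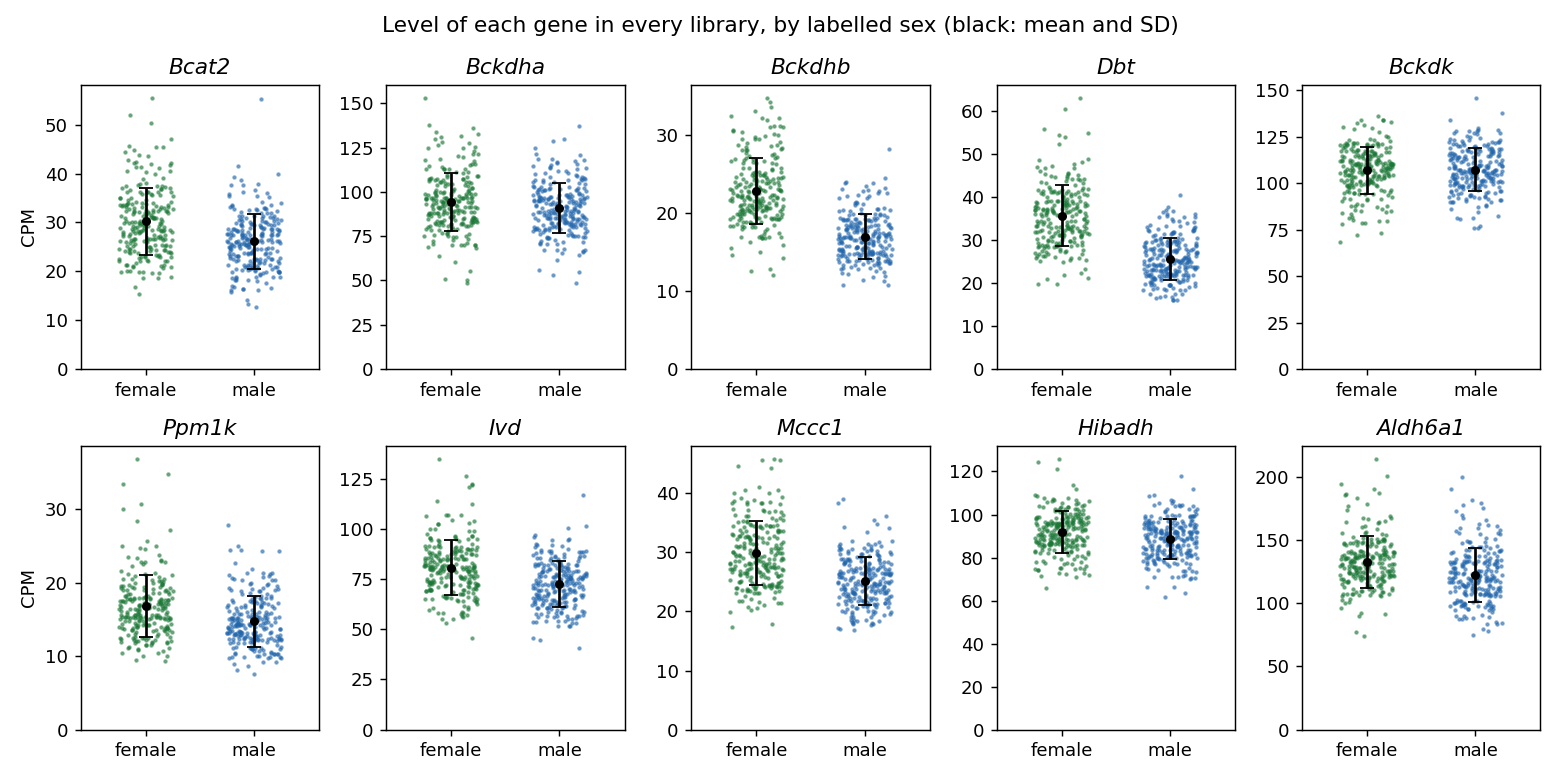
Level of each of the 10 genes in every library (CPM, linear axis from 0), females in green and males in blue, with the mean and SD in black. The female and male clouds separate most for Dbt (means 35.7 and 25.6 CPM) and Bckdhb (22.8 and 16.9 CPM) and coincide for Bckdk (106.9 and 107.4 CPM).

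Bcat2, the mitochondrial aminotransferase, ran from 15.3 to 55.4 CPM in females (median 29.6) and from 12.8 to 55.3 CPM in males (median 26.1). The ranges overlapped over nearly their whole length, with 72.3% of females above the male median. The log2 difference was -0.21 (SE 0.03, edgeR adjusted p = 1.23e-11).

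Dbt, the E2 core that passes the acyl group on to coenzyme A, ran from 19.8 to 62.98 CPM in females (median 35.7) and from 16.0 to 40.6 CPM in males (median 25.2). The ranges overlapped between 19.8 and 40.6 CPM, yet 96.2% of females lay above the male median. The log2 difference was -0.48 (SE 0.03, edgeR adjusted p = 1.31e-55). Bckdhb, the beta subunit of E1, ran from 12.1 to 34.6 CPM in females (median 22.2) and from 10.8 to 28.1 CPM in males (median 16.8). Again most females (95.3%) were above the male median. Its log2 difference was -0.43 (SE 0.02, edgeR adjusted p = 9.02e-55). Sex took 41.7% of the variance of Dbt and 41.5% of that of Bckdhb on the deposited variance stabilised (VST) scale, a scale close to log2, against 1.37% in the median gene. Even so, 892 of the 18823 genes had a log2 difference at or below that of Dbt.

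Bckdha, the alpha subunit of E1 and the substrate of the kinase, ran from 48.4 to 152.8 CPM in females (median 93.6) and from 48.6 to 137.05 CPM in males (median 89.995). The sexes overlapped almost entirely, with 58.3% of females above the male median. The log2 difference was -0.05 (95% interval -0.10 to -0.01, edgeR adjusted p = 0.0324). It did not pass with library block as a further covariate (-0.04, adjusted p = 0.0693) or with slow-fibre and adipocyte scores (-0.04, adjusted p = 0.248), nor in any single generation or block.

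The ratio of subunit messages within a library follows from these values and is given as a description, with no test, in 3 ratios chosen after the sex differences were seen. The log2 ratio of Bckdha to Dbt in CPM was 1.41 ± 0.35 (SD) in females and 1.83 ± 0.34 in males, a difference of 0.42 (SE 0.03). For Bckdha to Bckdhb it was 2.05 ± 0.33 in females and 2.43 ± 0.31 in males, a difference of 0.38 (SE 0.03). Within the 5 library blocks these differences ran from 0.37 to 0.50 for Dbt and from 0.36 to 0.47 for Bckdhb. For Bckdhb to Dbt the difference was 0.05 (95% interval -0.002 to 0.10).

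Bckdk, the kinase, ran from 68.2 to 136.0 CPM in females (median 108.5) and from 75.6 to 145.7 CPM in males (median 106.98). Neither sex stood higher, with 54.5% of females above the male median. The log2 difference was 0.01 (95% interval -0.02 to 0.04, edgeR adjusted p = 0.741). Ppm1k, the phosphatase, ran from 9.32 to 36.8 CPM in females (median 16.4) and from 7.63 to 27.8 CPM in males (median 14.3). It was lower in males by a log2 difference of -0.19 (SE 0.03, edgeR adjusted p = 1.15e-08), with 72.8% of females above the male median.

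The kinase and the phosphatase act against each other, so their ratio within a library was compared as well. Its sex difference follows from those of Bckdk (0.01) and Ppm1k (-0.19) and is not a result apart from them. The median ratio of Bckdk to Ppm1k in CPM was 6.59 in females and 7.56 in males. On the log2 scale it was 2.70 ± 0.42 (SD) and 2.89 ± 0.41, a difference of 0.19 (SE 0.04) with a permutation p of 1e-05 (2-sided, labels shuffled within generations, the smallest p possible). The ratio was higher in males in 5 of 5 generations and 5 of 5 blocks. It did not pass alone in generation 21 (0.18, permutation p = 0.0642), generation 23 (0.15, permutation p = 0.104) or block 4 (0.12, permutation p = 0.133).

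On the leucine branch, Mccc1, a subunit of methylcrotonyl-CoA carboxylase, ran from 17.4 to 45.7 CPM in females (median 29.3) and from 16.9 to 39.02 CPM in males (median 24.9). It had the largest gap after Dbt and Bckdhb, with a log2 difference of -0.25 (SE 0.02, edgeR adjusted p = 2.64e-23) and 79.6% of females above the male median. Ivd, isovaleryl-CoA dehydrogenase, ran from 45.6 to 134.7 CPM in females (median 80.2) and from 40.9 to 117.1 CPM in males (median 72.7), with a log2 difference of -0.15 (SE 0.02, edgeR adjusted p = 3.36e-11).

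On the valine branch the gaps were smaller. Aldh6a1, methylmalonate-semialdehyde dehydrogenase, ran from 73.7 to 213.7 CPM in females (median 130.8) and from 74.8 to 199.5 CPM in males (median 119.9), with a log2 difference of -0.12 (SE 0.02, edgeR adjusted p = 3.08e-07). Hibadh, 3-hydroxyisobutyrate dehydrogenase, ran from 65.6 to 125.7 CPM in females (median 92.4) and from 61.6 to 117.8 CPM in males (median 88.9), with a log2 difference of -0.06 (SE 0.01, edgeR adjusted p = 0.000246). Hibadh was also the steadiest member, with a residual SD of 0.15 VST units, a value that 14.2% of all genes did not exceed, against 0.30 for Ppm1k and 0.29 for Bcat2.

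Dbt, Bckdhb and Mccc1 passed in each of the 5 generations and each of the 5 library blocks fitted alone, where 7.35% of all genes did so in either direction. Bckdha and Bckdk passed in 0 of these 10 fits, as did 45.6% of all genes. Between these ends, Hibadh passed in 1 of 5 generations and 0 of 5 blocks, Ppm1k in 2 and 2, Aldh6a1 in 1 and 4, Ivd in 3 and 4 and Bcat2 in 4 and 3. Within single generations the log2 difference of Dbt ran from -0.58 to -0.30 and that of Bckdhb from -0.52 to -0.38. The count of members called in a single generation was 3 to 8, with far fewer animals in each fit. For 8 members (all but Bckdk and Ppm1k) the mean of every female group was above the mean of every male group, as in 18.9% of all genes, with 15.2% the other way round. Dbt had female group means of 33.2 to 37.1 CPM and male group means of 24.1 to 26.8 CPM, with group SDs of 4.46 to 7.85 CPM.

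Other features of the tissue differed between the sexes too. All 8 slow-fibre genes were lower in males (median log2 difference -0.48), and their summed level was 619.2 to 9946 CPM in females (median 3679) and 884 to 8212 CPM in males (median 2532). Of 7 adipocyte markers, 6 were lower and 1 was higher in males, and their summed level was 90.1 to 1301 CPM in females (median 247.3) and 101.8 to 712.4 CPM in males (median 216.98). No adipocyte or slow-fibre marker list was at 0 in any library. Brown adipocyte markers differed more: Ucp1, the uncoupling protein of brown fat, had a mean of 9.96 CPM in females and 1.104 CPM in males (log2 difference -3.79, edgeR adjusted p = 8.87e-20) and Cidea a log2 difference of -1.20 (adjusted p = 1.11e-13). Their summed level was 0.21 to 233.7 CPM in females (median 1.06) and 0.26 to 90.1 CPM in males (median 1.053), so most libraries of both sexes were low. Alb ran from 0 to 763.4 CPM in females (median 0.19) and from 0 to 19.8 CPM in males (median 0.14), with a log2 difference of -0.83 (adjusted p = 0.00132).

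The sex differences were refitted with these features. Without the 85 libraries (60 female, 25 male) in which Ucp1 or Alb exceeded 1 CPM, 8 members were called, all lower in males, at -0.46 for Dbt (edgeR adjusted p = 7.12e-42) and -0.41 for Bckdhb (2.02e-42), and Bckdha did not pass (-0.03, adjusted p = 0.324). With a score of Ucp1 and Cidea in the model the count was again 8, Bckdha not passing (-0.04, adjusted p = 0.0997). With the slow-fibre and adipocyte scores in the model, the log2 difference was -0.46 for Dbt (edgeR adjusted p = 3.43e-41), -0.39 for Bckdhb (5.53e-37) and -0.20 for Mccc1 (6.02e-13). With a score of 12 mitochondrial respiratory genes, 8 of them higher in males and 0 lower, it was -0.49 for Dbt and -0.44 for Bckdhb.

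**Figure D2:**
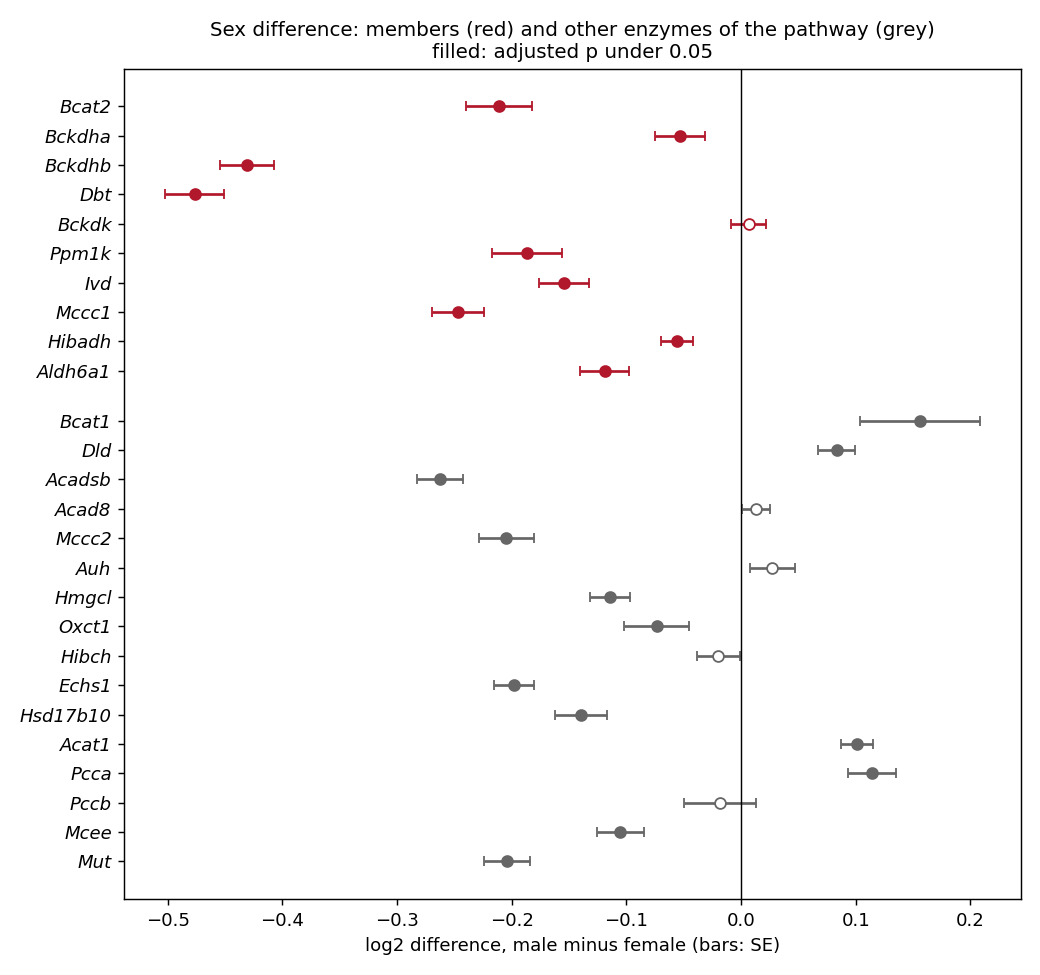
Log2 difference (male minus female, edgeR) with SE for the 10 members in red and the 16 other enzymes of the pathway in grey, filled where the adjusted p was under 0.05. Dbt (-0.48) and Bckdhb (-0.43) lie farthest to the left, and Bckdk (0.01) is the open red point at 0.

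Of 16 other enzymes of the pathway, 8 were lower and 4 higher in males, and 4 did not pass (median log2 difference -0.05). Acadsb, the short/branched-chain acyl-CoA dehydrogenase, fell by 0.26 on the log2 scale (SE 0.02, edgeR adjusted p = 2.09e-31), from 98.4 ± 16.96 CPM in females to 82.1 ± 12.2 CPM in males. Mccc2, the partner subunit of Mccc1, fell by 0.20 (SE 0.02, adjusted p = 1.91e-15). Cytosolic Bcat1, present at under 1 CPM, was higher in males by 0.16 (SE 0.05, adjusted p = 0.00682). Dld, the E3 subunit, was named after its value was seen and was also higher in males, by 0.08 (SE 0.02, adjusted p = 1.09e-06), so the subunits of the complex did not share a direction.

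Of 4 genes of amino acid transport, 2 were lower in males and 2 did not pass. Of 5 transcriptional regulators known for oxidative metabolism or amino acid breakdown, 3 were lower and 2 higher in males. Klf15, a factor known to raise branched-chain breakdown genes in muscle, had a mean of 37.8 ± 15.1 CPM (SD) in females and 25.6 ± 7.54 CPM in males, a log2 difference of -0.56 (SE 0.04, edgeR adjusted p = 6.22e-36). Ppargc1a, a coactivator of mitochondrial genes, was higher in males by 0.23 (SE 0.06, adjusted p = 0.000653), and Esrra, a nuclear receptor that works with it, by 0.15 (SE 0.02, adjusted p = 3.45e-13).

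Few of these genes differed between generations. Between the 5 generation numbers, 1 of 10 members passed, with sex as covariate, where 7.56% of all genes did. This was Ppm1k, with mean levels of 14.7 ± 3.44 CPM (SD, n = 94) in generation 17, 15.4 ± 3.88 (n = 93) in 18, 15.7 ± 3.24 (n = 99) in 19, 16.2 ± 4.61 (n = 93) in 21 and 16.8 ± 4.41 (n = 95) in 23. The groups overlapped throughout, and the fitted range between the highest and the lowest was 0.19 on the log2 scale (edgeR adjusted p = 0.0218). It did not pass within females (adjusted p = 0.372), within males (0.192) or by limma on the deposited VST (0.0532). The median fitted range over the members was 0.05, against 0.11 over all genes. Of the other pathway, transport and regulator genes, Slc7a8, a plasma membrane amino acid carrier (range 0.55, adjusted p = 1.37e-05), and Ppargc1a (range 0.58, adjusted p = 6.9e-08) passed. Markers of other cells differed between generations as well: 3 of 7 adipocyte markers passed (Adipoq, adjusted p = 0.0371, Plin1, 0.0252, and Lep, 0.0226), as did Alb, the liver marker (range 5.10, adjusted p = 2.71e-50). Ppm1k did not pass without the 85 libraries in which Ucp1 or Alb exceeded 1 CPM (range 0.15, adjusted p = 0.229).

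The sex difference itself was not seen to vary with generation. The sex-by-generation interaction passed in 0 of 10 members by edgeR and 0 by limma on VST, with 1 of 10 at an unadjusted p under 0.05, and in 0.531% of all genes. The spread among animals was also compared between the sexes, by limma on absolute deviations of VST from the group median. It passed in 0 of 10 members in either direction, with 1 at an unadjusted p under 0.05 and again 0 on the log2 CPM scale, where 3.8% of all genes were called more variable in females and 1.75% in males.

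Library number, read from the label, gave more calls than generation. Between 5 blocks of consecutive library numbers, 5 of 10 members passed (Bckdha, Bckdk, Ppm1k, Ivd and Aldh6a1), close to the 47.4% of all genes that did. Bckdk had its lowest block mean in block 1 (100.2 ± 13.3 CPM, SD, n = 96) and its highest in block 2 (110.9 ± 11.3, n = 96). Aldh6a1 had its highest in block 1 (138.02 ± 24.7 CPM) and its lowest in block 3 (120.96 ± 16.3, n = 96). Correlations among animals are therefore given within blocks as well.

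Among animals, most of the genes rose and fell together once sex and generation had been removed. Pearson correlations of VST residuals over all animals had a median of 0.30 over the 45 pairs of members, and -0.001 over all pairs of tested genes. The share of all gene pairs at or above the members' median was 2.22%. By permutation tests (2-sided, adjusted over the 45 pairs) 37 pairs were positive, 3 negative and 5 did not pass. The smallest correlation that passed was 0.11 in size, a size that 13.6% of all gene pairs reached on the positive side and 13.4% on the negative side. Leaving out the 2 animals farthest from the median of the first gene moved r by at most 0.026, and the sign of 1 pair changed. Of the 45 pairs, 30 were positive in all 5 library blocks and 28 in all 10 sex-by-generation groups, against 10.9% and 4.28% of all gene pairs.

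**Figure D3:**
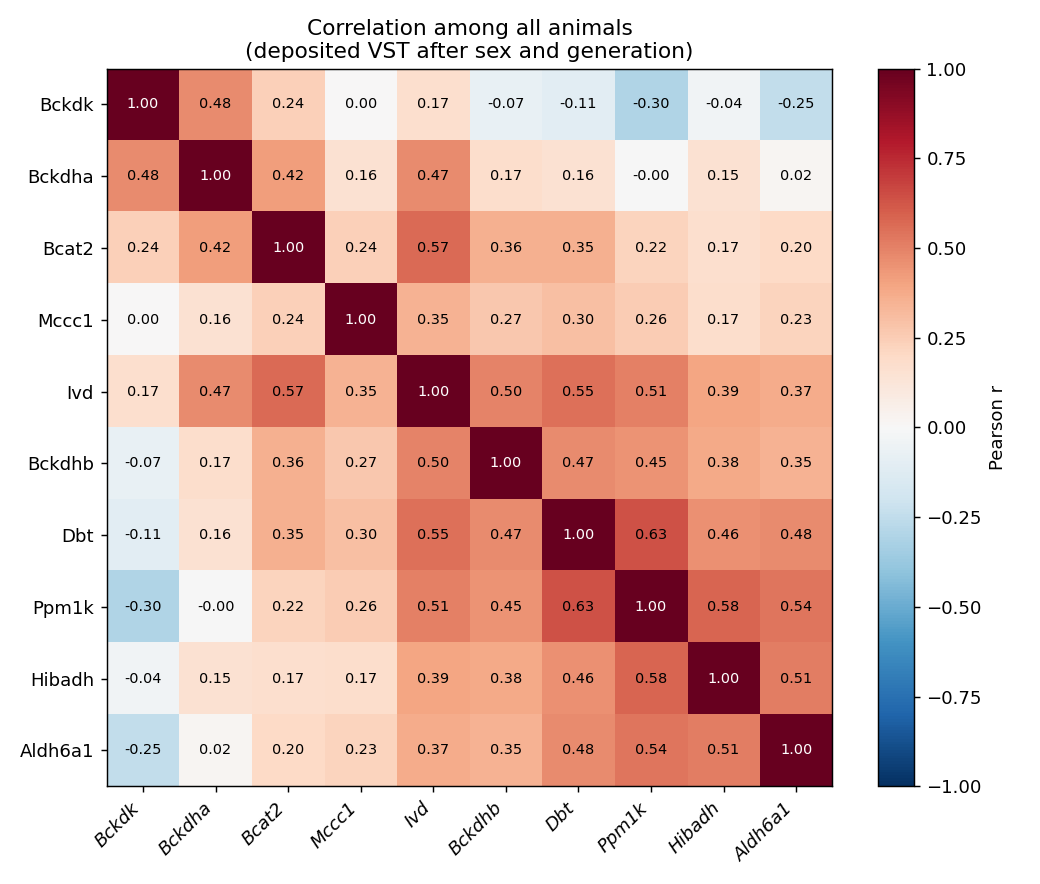
Pearson r between each pair of the 10 genes over all animals, on deposited VST after removal of sex and generation, red for positive and blue for negative. The lower right group (Ivd, Bckdhb, Dbt, Ppm1k, Hibadh and Aldh6a1) is red throughout, with r from 0.35 to 0.63, whereas the Bckdk row has r from -0.30 with Ppm1k to 0.48 with Bckdha.

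The closest pair was Dbt and Ppm1k, the E2 core and the phosphatase. Their r was 0.63 (Spearman rho 0.60, permutation p = 1e-05, adjusted p = 1.5e-05), 0.62 without the 2 animals farthest from the median of Dbt, and 0.51 to 0.74 within blocks. Next came Ppm1k with Hibadh (r 0.58, rho 0.57, permutation p = 1e-05, 0.35 to 0.71 within blocks) and Bcat2 with Ivd (r 0.57, rho 0.51, permutation p = 1e-05, 0.39 to 0.70 within blocks). Ivd had the highest mean r with the other members, at 0.43, and was positive with all 9 of them. The E1 and E2 genes Bckdhb and Dbt, which shared the sex difference, were correlated after sex was removed, with r 0.47 (rho 0.44, permutation p = 1e-05) and 0.37 to 0.54 within blocks.

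Bckdk stood apart. Its mean r with the other 9 members was 0.01, and all 3 negative pairs held it. With Ppm1k, r was -0.30 (rho -0.26, permutation p = 1e-05, adjusted p = 1.5e-05), -0.28 without the 2 farthest animals and -0.50 to -0.04 within blocks. With Aldh6a1, r was -0.25 (rho -0.19, permutation p = 1e-05) and -0.43 to 0.02 within blocks. With Dbt, r was -0.11 (rho -0.06, permutation p = 0.0184, adjusted p = 0.0207), a pair that did not pass by Spearman (p = 0.159). Its highest r was with its substrate gene Bckdha, at 0.48 (rho 0.39, permutation p = 1e-05, 0.14 to 0.68 within blocks). Both lie on chromosome 7, far apart.

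Bckdha was between the groups. It went with Ivd (r 0.47, rho 0.44, permutation p = 1e-05) and Bcat2 (r 0.42, rho 0.38, permutation p = 1e-05) and only weakly with its complex partners Bckdhb (r 0.17, rho 0.19, permutation p = 0.00018) and Dbt (r 0.16, rho 0.19, permutation p = 0.00064). Those weak pairs changed sign in at least 1 block, from -0.12 to 0.45 for Bckdhb and from -0.31 to 0.48 for Dbt. With Ppm1k it had r -0.0002 (permutation p = 0.997), 0.02 without the 2 farthest animals, and -0.32 to 0.29 within blocks. The first principal component of the 10 genes held 38.9% of their residual variance, with its largest loadings on Ivd (0.41), Dbt (0.40) and Ppm1k (0.39) and the smallest on Bckdk (-0.02). The second held 19.3%.

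**Figure D4:**
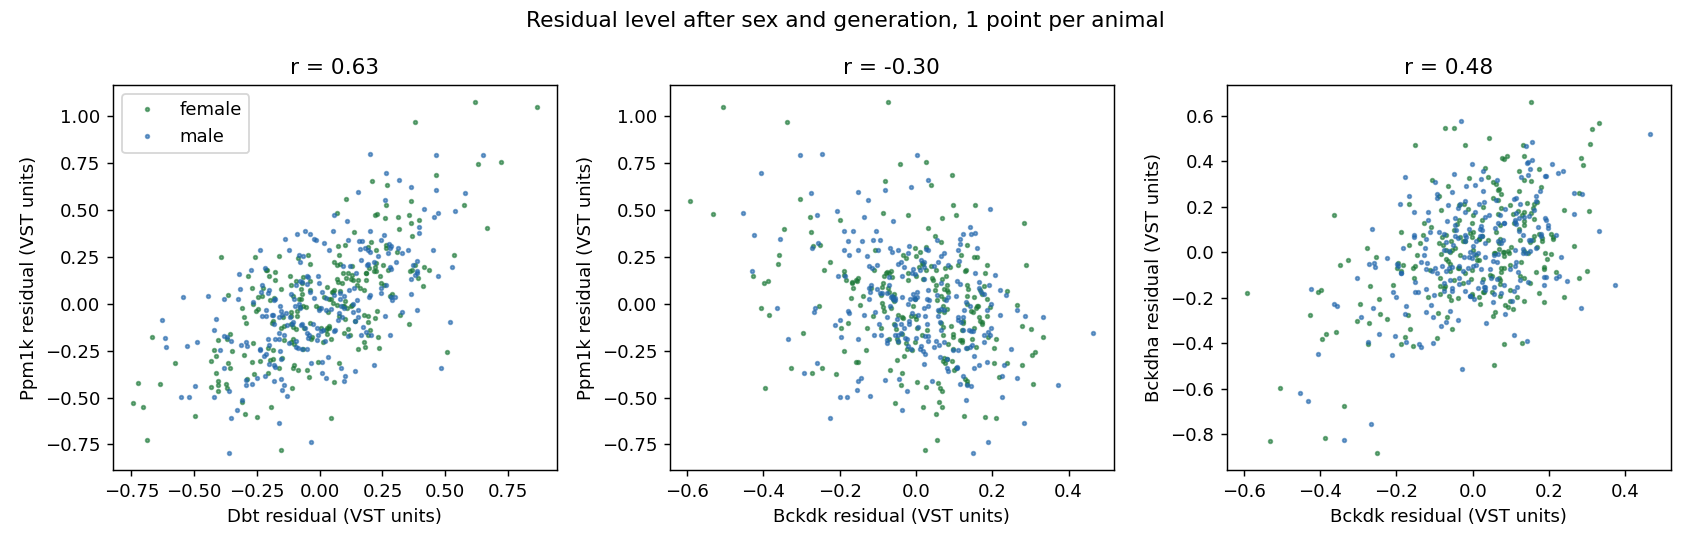
Residual levels (VST units after sex and generation), 1 point per animal, females in green and males in blue. Dbt against Ppm1k rises (r = 0.63), Bckdk against Ppm1k falls (r = -0.30) and Bckdk against Bckdha rises (r = 0.48), with a few animals of low Bckdk and low Bckdha at the lower left of the last panel.

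The genes outside the list whose residuals were most like the mean of the members were Echs1 (r 0.69 over all animals), Oxct1 (0.67), Kyat3 (0.67), Gcdh (0.62) and Acadsb (0.60). Echs1, Oxct1 and Acadsb are enzymes of the same pathway or its ketone end, and Gcdh acts in lysine breakdown. For single members, the most alike gene outside the list was Acadsb for Ppm1k (0.66), Aldh6a1 (0.65) and Dbt (0.60), Kyat3 for Bckdhb (0.54), Echs1 for Ivd (0.61) and Dld for Hibadh (0.55). Bckdk (0.63) and Bckdha (0.61) both had Ndufs7, a subunit of respiratory complex I, as their most alike gene. These likenesses were picked as the highest over all tested genes outside the list and carry no test.

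For 2 members the most alike gene outside the list was a close neighbour on the chromosome. The members are left out of the ranks given here. Bcat2 had its highest r outside the list, 0.51, with Hsd17b14, whose start lies 0.015 Mb away, and 0 of the other genes outside the list exceeded it in size. Mccc1 had its highest positive r outside the list, 0.40, with Mccc1os, a transcript on the opposite strand that shares 198 exon bases with it, so shared reads cannot be told apart. Its largest in size among those genes was negative, -0.41, with Gm43820, whose start is 1.69 Mb away. Aldh6a1 had r 0.54 with Lin52, which starts 0.021 Mb away, and 5 genes outside the list exceeded that in size. Dbt had r 0.37 with Trmt13 at 0.068 Mb, where 23 genes outside the list were larger in size. In contrast, the largest neighbour value within 4 Mb was exceeded by 1010 genes outside the list for Ppm1k.

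The members were also set against 5 regulators, 4 tissue scores and the total count, in 100 relations with permutation p-values adjusted over all 100. Leaving out the 2 farthest animals moved r by at most 0.043 and turned the sign of 0 relations that passed. The smallest r that passed was 0.11 in size, and the shares of all genes beside each measure are those that reached it. Klf15 passed with all 10 members, always positive (median r 0.26), where 17.6% of all genes reached that size on the positive side and 18.2% on the negative. Its highest r was with Ivd, at 0.38 (rho 0.34, permutation p = 1e-05, 0.24 to 0.45 within blocks), followed by Bcat2 (0.34, rho 0.29, permutation p = 1e-05) and Bckdhb (0.33, rho 0.29, permutation p = 1e-05). With Bckdk it was lowest, at 0.11 (rho 0.12, permutation p = 0.0223, adjusted p = 0.0429), and changed sign between blocks (-0.04 to 0.18). Ppara, a fatty acid receptor, passed with 9 members, all positive, the exception being Bckdk (r 0.07), where 13.1% of all genes reached that size positively and 12.5% negatively.

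Bckdk and Bckdha had the highest correlations with respiratory genes, although Bckdha also passed with Klf15 (r 0.28) and Ppara (r 0.22). With the mitochondrial score Bckdk had r 0.51 (rho 0.47, permutation p = 1e-05, 0.40 to 0.56 within blocks) and Bckdha 0.48 (rho 0.43, permutation p = 1e-05, 0.34 to 0.64 within blocks), whereas Ppm1k had r 0.02. In all, 7 members passed with that score, each positive, of which Dbt did not pass by Spearman (adjusted p = 0.0604), against 20.5% of all genes positively and 29.4% negatively. Esrra passed with 4 members positively, the highest being Bckdha (r 0.41, rho 0.27, permutation p = 1e-05), and with 2 negatively, the lowest being Aldh6a1 (r -0.24, rho -0.17, permutation p = 1e-05) and the other, Ppm1k, not passing by Spearman (adjusted p = 0.253). The shares of all genes with Esrra were 22.2% positively and 28.8% negatively. Ppard passed with 6 members positively and 1 negatively, Aldh6a1 (r -0.13), which did not pass by Spearman (rho -0.06, adjusted p = 0.282), with 24.8% of all genes positive and 28.4% negative. Ppargc1a passed with 2, both positive, at r up to 0.17, close to the 14.1% of all genes on that side, with 13% on the other.

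**Figure D5:**
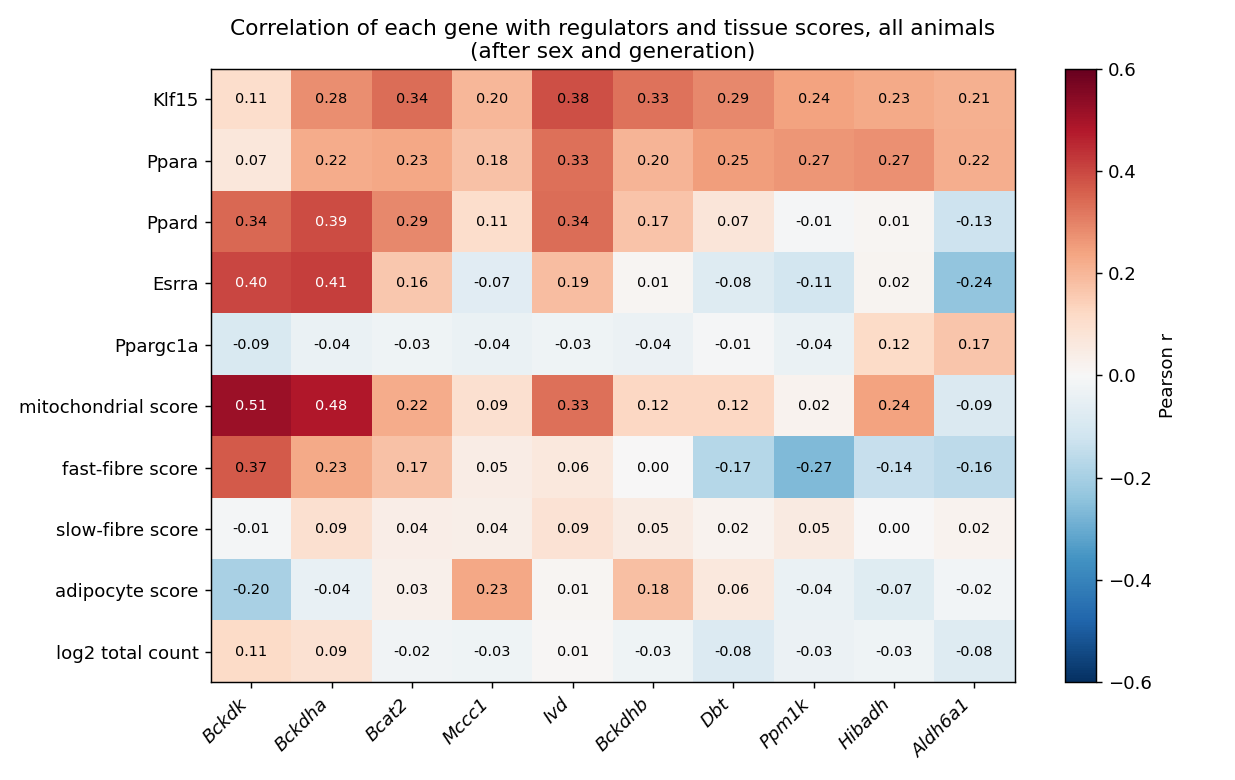
Pearson r over all animals, after sex and generation, between each of the 10 genes (columns) and 5 regulators, 4 tissue scores and the log2 total count (rows), red for positive and blue for negative. The Klf15 row is positive across all 10 genes (0.11 to 0.38), and the mitochondrial row is highest for Bckdk (0.51) and Bckdha (0.48).

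The kinase and the phosphatase had opposite signs with the fast-fibre score, a mean over contractile genes of fast fibres. In all, 3 members passed positively and 4 negatively, near the 22.8% and 31% of all genes, with Bckdk highest at r 0.37 (rho 0.34, permutation p = 1e-05, 0.24 to 0.49 within blocks) and Ppm1k lowest at -0.27 (rho -0.25, permutation p = 1e-05, -0.44 to -0.09 within blocks). The slow-fibre score passed with 0 members by Pearson and 0 by Spearman, at r from -0.01 to 0.09, with 1 (Bckdha) at an unadjusted permutation p under 0.05, where 5.8% of all genes reached that size positively and 5.71% negatively. The adipocyte score passed with 3 members, Mccc1 (r 0.23, rho 0.22, permutation p = 1e-05), Bckdhb (0.18) and, negatively, Bckdk (-0.20), against 20.8% of all genes positively and 18.5% negatively. Total count passed with Bckdk alone (r 0.11, against 4.31% of all genes positively and 2.3% negatively), and not by Spearman (rho 0.06, adjusted p = 0.277). Of the relations called by Pearson (44 positive and 8 negative), 48 were also called by Spearman.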

How the data were processed

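Skeletal muscle RNA-seq of Diversity Outbred mice was analysed from the deposited tables, with the members and gene lists chosen when earlier results of these data were known. Libraries of polyadenylated RNA were sequenced in read pairs. Both mates were aligned by the authors, as single reads, to a combined transcriptome of the founders, and EMASE (in GBRS) gave the expected counts of each gene, so a count is a read end. Versions are not given in the sources used here. A second deposited table holds a score, the variance stabilising transform (VST) of DESeq2. Removal of batch effects is described. Library block, which the labels do not call a batch, took 1.67% of the variance of the median gene in the deposited score and 2.06% in log2 CPM. Generation, with as many levels, took 0.98% in the deposited score. Other columns are gene positions (GRCm38, GRCm38 being the build in the submitters' processing notes).

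Expected counts were rounded and tested with edgeR 4.0.16 in R 4.3.3 (filterByExpr, minimum count 10, leaving 18823 genes, TMM, quasi-likelihood F-test, threshold 0.05), with sex and generation as terms. Blocks are stretches of up to 96 consecutive library numbers. Columns were matched by animal number. CPM used TMM-scaled totals, and log2 CPM a prior count of 2. Scores are mean z-scores of log2 CPM over a list. Spread was tested with limma 3.58.1. Correlations used VST residuals and 100000 permutations within sex-by-generation groups. The edgeR fits of sex and generation and the limma test of spread were tested on simulated data. The interaction test and the permutation tests were not. Alternatives were other size factors, filters, covariates, subsets, limma on VST and DESeq2 1.42.0. Correlations and figures used Python 3.11.15 (scipy 1.17.1, pandas 2.3.3, matplotlib 3.10.9, numpy 2.4.6). Of the other pathway, transport and regulator genes, the 3 called genes with the largest rise and the 3 with the largest fall, and every gene called between generations, were named, together with the genes most like the members and their neighbours within 4 Mb.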

Additional observations from a re-analysis of the deposited data

How the results depend on the processing

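The count of 9 members called between the sexes, all lower in males, was 8 or 9 with other size factors or filters, with block or tissue scores added, by limma on VST, by DESeq2, without the 5 libraries against their label and, in alternatives chosen after seeing the data, with a brown adipocyte score or without the 85 libraries with Ucp1 or Alb over 1 CPM. In smaller fits, where fewer animals enter, the lowest counts were 4 in generation 17, 3 in generation 19, 5 in generation 23, 4 in block 1 and 5 in block 5. Single generations gave 3 to 8. No block reached 8, with Bckdha, Bckdk and Hibadh passing in 0 of 5 blocks. Of 220 recomputed sex differences of single members, 39 kept their direction but no longer passed. In 9 the sign was opposite, none of them past the threshold: 1 of Bckdha, in block 5 (0.0104, edgeR adjusted p = 0.908), and 8 of Bckdk, whose difference ran from -0.03 to 0.06. The others kept both direction and call. The generation count of 1 was 0 within females, within males, by limma on VST and without those 85 libraries, where 4 of 25 other pathway, transport and regulator genes were called against 2 in all libraries. The median correlation of 0.30 was 0.42 with no adjustment for sex and generation, 0.18 in block 1 and 0.45 in block 5, and 0.26 to 0.34 otherwise. The difference in the log2 ratio of Bckdk to Ppm1k did not pass in generation 21 (0.18), generation 23 (0.15) or block 4 (0.12). The causes of these changes were not tested. No paired analysis was possible because each animal number occurs once and groups share no numbers.

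At totals of at least 35902446 counts, depth limits little for genes at these levels. Wave, a covariate of the study, and any shared ancestry among animals were not fitted, and the tables measure RNA and not enzyme phosphorylation or activity.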
